A study of Homo sapiens with 12 samples.

Results

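The apolipoprotein L (APOL) family was followed in 624Mel cells, an established human melanoma line, as the 6 genes named APOL1 to APOL6. All 6 were found by symbol among the 40173 Ensembl gene IDs of the table, and none of their IDs had the same values as another ID. The 4 conditions held 3 libraries each. Cells received control siRNA (siCTRL) or siRNA targeting MITF (siMITF), and in each case were left untreated or given 5 ng/mL IFNγ for the last 24 h before collection. All 4 conditions shared the transfection, and the siMITF libraries model a knockdown, not a deletion, in a single line. Per the methods the experiments were independent biological replicates, while the labels only number the samples.

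Proteins of the APOL family carry a region that inserts into or acts on membranes, and their genes lie near each other on chromosome 22. APOL1 is the secreted member, a component of high-density lipoprotein particles that lyses trypanosomes, while the other members lack a secretion signal and act inside cells. APOL3 acts as a detergent-like killer of bacteria in the cytosol of IFNγ-treated human cells, APOL6 has been described as a pro-apoptotic protein with a BH3-like stretch, and APOL2 is an intracellular membrane protein. IFNγ signals through the JAK kinases and induces the transcription factor IRF1, and MITF is the master regulator of the melanocytic state.

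The members resemble each other, so the coding stretch in which they are most alike is shown to let the reader see how far their transcripts can be told apart. It is the window of 60 bases within the first 750 coding bases of APOL1 with the fewest mismatches to the other members, read from the GENCODE transcripts on GRCh38. Capitals mark the bases that differ from APOL1, and each sequence is given 5′ to 3′ on the strand of its gene.
APOL1, chr22:36265311-36265370, + strand, exon 6 of 6: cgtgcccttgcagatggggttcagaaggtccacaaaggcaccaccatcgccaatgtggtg
APOL2, chr22:36228061-36228120, − strand, exon 5 of 5: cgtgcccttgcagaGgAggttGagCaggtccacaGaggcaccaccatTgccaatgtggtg
APOL3, chr22:36141839-36141898, − strand, exon 4 of 4: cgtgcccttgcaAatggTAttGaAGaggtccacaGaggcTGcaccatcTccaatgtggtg
APOL4, chr22:36191693-36191752, − strand, exon 4 of 4: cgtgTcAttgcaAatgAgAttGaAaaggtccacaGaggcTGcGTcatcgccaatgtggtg
APOL5, chr22:35726429-35726488, + strand, exon 3 of 5: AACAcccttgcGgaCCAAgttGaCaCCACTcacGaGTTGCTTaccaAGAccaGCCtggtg
APOL6, chr22:35658745-35658804, + strand, exon 3 of 3: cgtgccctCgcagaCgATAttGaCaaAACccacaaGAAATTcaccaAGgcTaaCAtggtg

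In this window APOL2 differed from APOL1 at 6 bases, APOL3 at 10, APOL4 at 12, APOL6 at 21 and APOL5 at 30. The longest coding run shared by any pair was 30 bases, between APOL1 and APOL2, shorter than the 31 bases at which the quantification tool, kallisto, matches reads by default. Over whole protein-coding transcripts, the share of 31-base words found in another APOL gene was 5.4% for APOL1, 4.49% for APOL2, 2.04% for APOL3 and 1.22% for APOL4. It was 0.0199% for APOL6 and 0% for APOL5. With any other annotated gene the share was 16.3% for APOL1, 13.6% for APOL4, 8.82% for APOL2, 5.71% for APOL6, 2.04% for APOL3 and 0% for APOL5, and how the reads of those words were assigned was not tested.

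Expression was given as TPM, shares of a library's transcripts that are scaled by transcript length and can therefore be compared between genes. TPM hold no read numbers, and the sequencing depth stays unknown. A level of 2 TPM or more was seen for 11850 to 12377 genes in each library, and mitochondrial genes took from 7.42% to 16.9% of the listed TPM. In every condition replicate 2 had the lowest mitochondrial share. MITF had from 158 to 246 TPM in the 6 siCTRL libraries and from 36.0 to 55.1 TPM in the 6 siMITF libraries. All 9 melanocytic markers were above 2 TPM in at least 1 condition, and their summed TPM had a median of 8400 with siCTRL and 2620 with siMITF. Without IFNγ 5 of the 9 were changed downward by siMITF and 1 upward, S100B, with a log2 change of 1.02 (limma adjusted p = 2.2e-07). All 6 endothelial markers, 5 of 6 leukocyte, 4 of 6 fibroblast and 5 of 6 keratinocyte markers stayed under 2 TPM in every condition. KRT10, the remaining keratinocyte marker, had means from 43.3 TPM in siCTRL + IFNγ to 54.2 TPM in siCTRL libraries. The sum of the leukocyte markers was 2.99 to 3.19 TPM in siCTRL, 1.96 to 2.64 in siCTRL + IFNγ, 4.62 to 5.58 in siMITF and 3.93 to 4.35 in siMITF + IFNγ libraries, and that of the fibroblast markers was 6.22 to 7.83, 4.0 to 4.32, 10.3 to 12.5 and 6.38 to 7.24 TPM in the same order. Both sums were higher with siMITF and lower with IFNγ, and their part in the results was not tested. Most of the leukocyte sum was LYZ, with means of 2.44 TPM in siCTRL and 4.74 in siMITF. Most of the fibroblast sum was LUM, with 4.77 and 6.91 TPM. Not all markers moved with the sums. The mean of PTPRC went from 0.17 to 0.616 TPM with IFNγ in siMITF cells, and that of CD14 was 0.237 TPM in siCTRL and 0.102 in siMITF. In bulk RNA a change in the number of cells with a transcript and a change in RNA per cell cannot be told apart.

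In untreated siCTRL cells the family was represented almost wholly by APOL2. APOL2 had 32.4, 29.5 and 30.5 TPM in the 3 siCTRL libraries and took 96.2% ± 0.532 (SD, n = 3) of the summed APOL TPM. APOL1 followed at 0.508 ± 0.101 TPM and APOL4 at 0.426 ± 0.0442 TPM, with overlapping libraries. APOL6 came next at 0.221 ± 0.0249 TPM, apart from both of its neighbours in this order. APOL3 reached at most 0.0821 TPM and was listed at 0 in 1 of these libraries.

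**Figure D1:**
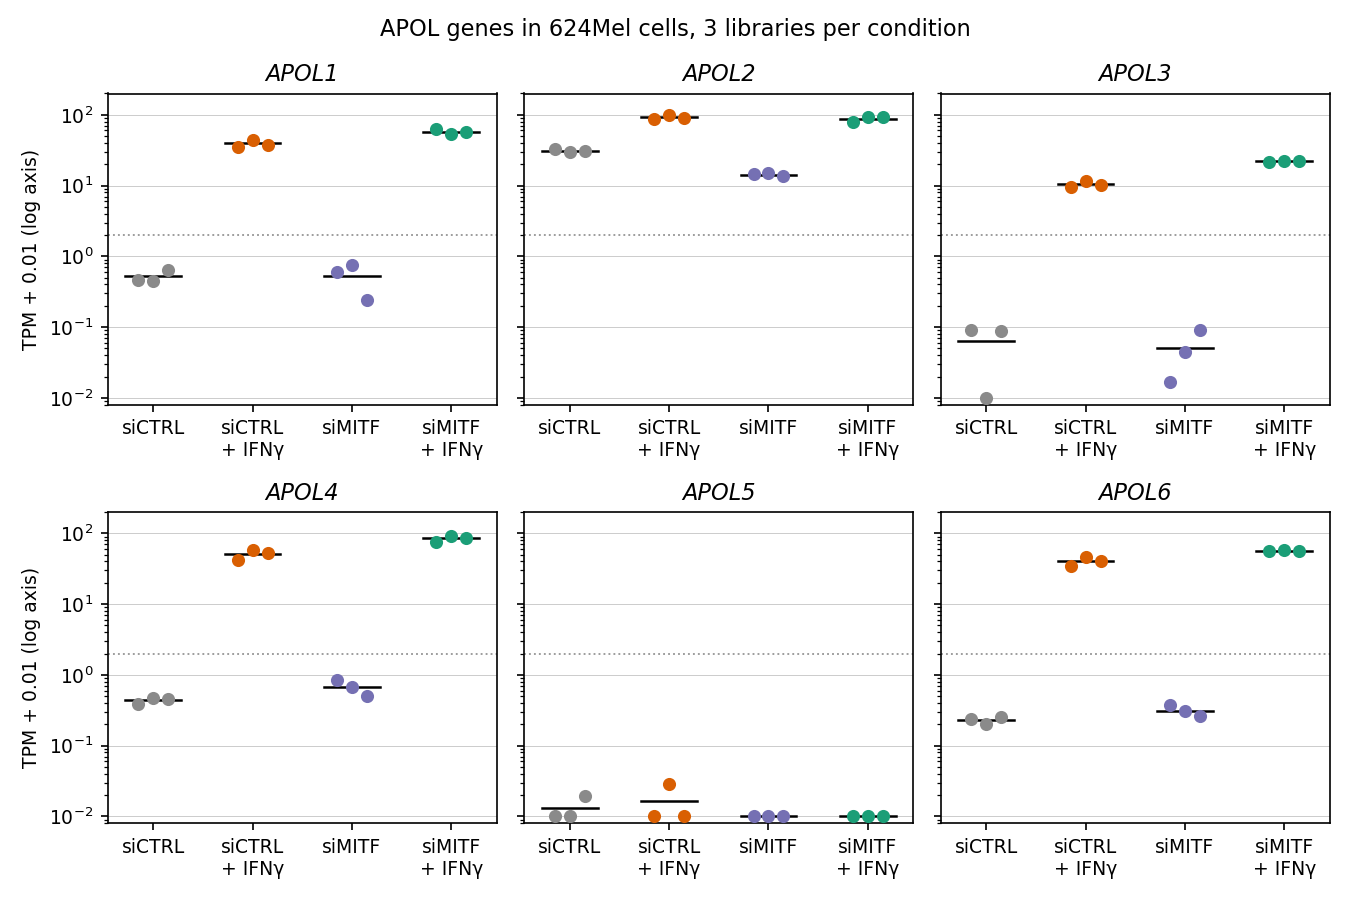
TPM plus 0.01 of the 6 APOL genes on a log axis, with a point for each of the 3 libraries per condition, a line at their mean and a dotted line at 2 TPM. APOL1, APOL3, APOL4 and APOL6 lie under the dotted line without IFNγ and above it with IFNγ, APOL2 lies above it in all 12 libraries and APOL5 under it in all 12.

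IFNγ raised 5 of the 6 members in siCTRL cells, and the remaining gene was APOL5, which stayed under 2 TPM in every library and was not tested. APOL4 went from 0.375, 0.453 and 0.45 TPM to 41.3, 58.2 and 52.2 TPM in the 3 libraries. APOL6 went from 0.23, 0.193 and 0.24 TPM to 35.0, 45.5 and 40.2 TPM. APOL1, the secreted member, went from 0.459, 0.441 and 0.625 TPM to 35.6, 44.7 and 37.7 TPM. In each of these genes the lowest treated library was above the highest untreated library, as it was in 11.7% of all tested genes. APOL3 went from 0.0821, 0 and 0.077 TPM to 9.67, 11.6 and 10.3 TPM, so it stayed the lowest of the induced members. APOL2 started high and rose least, from 32.4, 29.5 and 30.5 TPM to 86.9, 98.4 and 89.7 TPM, a ratio of means of 2.97.

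The differences were tested with limma on log2(TPM + 1), fitted to 12773 gene IDs whose mean reached 2 TPM in some condition, with p-values adjusted by the Benjamini-Hochberg method over all of them. Changed genes were those with a log2 change of 1 or more in either direction, an adjusted p under 0.05 and a mean of 2 TPM or more on at least 1 side of the comparison. The log2 change with IFNγ was 5.16 for APOL4 (standard error 0.13, limma adjusted p = 1.7e-11), 5.07 for APOL6 (standard error 0.1, adjusted p = 1.5e-12) and 4.74 for APOL1 (standard error 0.13, adjusted p = 4.7e-11). It was 3.45 for APOL3 (standard error 0.1, adjusted p = 4.0e-11) and 1.54 for APOL2 (standard error 0.08, adjusted p = 3.1e-08). Over all tested genes 309, or 2.42%, were changed upward in this comparison, with a median of -0.07. APOL1, APOL3, APOL4 and APOL6 reached 2 TPM only with IFNγ, so that they could enter the test only by being higher there, and their number carries no weight of its own. The pseudocount understates the change of genes near 0 TPM. With a pseudocount of 0.1 in place of 1 the log2 change of APOL3 was 6.16, and the ratio of mean TPM was 77.4 for APOL1, 119 for APOL4 and 182 for APOL6.

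In siMITF cells the same 5 genes rose with IFNγ, from levels that were again under 1 TPM except for APOL2. APOL4 went from 0.841, 0.658 and 0.486 TPM to 75.7, 92.4 and 86.9 TPM, a log2 change of 5.69 (limma adjusted p = 5.0e-12). APOL6 went from 0.363, 0.293 and 0.252 TPM to 55.9, 57.6 and 56.3 TPM, a log2 change of 5.47 (limma adjusted p = 7.0e-13). The SD of these 3 treated libraries of APOL6 was 0.869 TPM around a mean of 56.6. APOL1 went from 0.589, 0.737 and 0.229 TPM to 62.6, 53.9 and 56.6 TPM, a log2 change of 5.29 (limma adjusted p = 1.3e-11). APOL3, the antibacterial member, went from 0.00693, 0.0341 and 0.0806 TPM to 21.6, 22.4 and 22.5 TPM, a log2 change of 4.48 (limma adjusted p = 2.4e-12), or 7.34 with a pseudocount of 0.1. APOL2 went from 14.5, 14.9 and 13.5 TPM to 78.6, 91.6 and 91.6 TPM, a log2 change of 2.53 (limma adjusted p = 1.6e-10). In none of the 5 did treated and untreated libraries overlap, and 12.1% of all tested genes were higher with IFNγ without overlap. As in siCTRL cells, APOL1, APOL3, APOL4 and APOL6 entered the test only through their levels with IFNγ. Of all tested genes 2.72% were changed upward by IFNγ in siMITF cells, and the median over all tested genes was -0.1.

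APOL5, the remaining member, was at or near 0 throughout. Its highest values were 0.0187 TPM in a siCTRL library with IFNγ and 0.00959 TPM in a siCTRL library without it, and it was listed at 0 in all 3 siMITF libraries with IFNγ. Without a filter on low values its adjusted p in limma lay between 0.613 and 1 over the comparisons.

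Without IFNγ, siMITF lowered APOL2, the member with the highest level. APOL2 had 14.5, 14.9 and 13.5 TPM in siMITF libraries against 32.4, 29.5 and 30.5 TPM in siCTRL libraries, and the libraries did not overlap, as in the 22.0% of tested genes that were lower without overlap. Its level with siMITF was 0.463 of that with siCTRL, and its log2 change was -1.06 (95% confidence interval -1.24 to -0.87, limma adjusted p = 1.0e-06). Of all tested genes 2.88% were changed downward by siMITF without IFNγ. The other members had means under 2 TPM on both sides, so APOL2 was the only member that could be counted as changed. For APOL1 the log2 change was between -0.3 and 0.29 (95% confidence interval, limma adjusted p = 0.988), and the libraries overlapped. For APOL3 the interval was -0.22 to 0.19 (limma adjusted p = 0.914), again with overlapping libraries. Both genes were under 1 TPM here, where a pseudocount of 1 holds the log2 change near 0. Their intervals therefore cannot show that their levels were unchanged. APOL4 had 0.662 ± 0.177 TPM with siMITF against 0.426 ± 0.0442 TPM, and APOL6 had 0.302 ± 0.0563 against 0.221 ± 0.0249 TPM. Both sets of siMITF libraries lay above the siCTRL libraries without overlap, as in 33.0% of all tested genes, and neither difference passed the test (log2 change 0.22 and 0.09, limma adjusted p = 0.233 and 0.519). With a pseudocount of 0.1 the adjusted p of APOL4 was 0.0411, at a log2 change of 0.51.

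With IFNγ, siMITF cells held more APOL3, APOL4, APOL1 and APOL6 than siCTRL cells, while APOL2 did not pass the test. APOL3 had 22.2 ± 0.51 TPM against 10.5 ± 0.964 TPM, a log2 change of 1.01 (95% confidence interval 0.8 to 1.22, limma adjusted p = 4.8e-06). It was the 1 member counted as changed, against 3.12% of all tested genes that were changed upward. Its change lies at the limit of 1, and it fell to 0.998 with each library centred on its median, to 0.957 without siCTRL + IFNγ replicate 1 and to just under 1 without siMITF + IFNγ replicate 3, so that no member was then counted. APOL4 had 85.0 ± 8.5 against 50.6 ± 8.59 TPM, a ratio of 1.68 and a log2 change of 0.75 (limma adjusted p = 7.9e-04). APOL1 had 57.7 ± 4.47 against 39.3 ± 4.73 TPM, a log2 change of 0.55 (limma adjusted p = 0.00772, or 0.142 with a pseudocount of 0.1). APOL6 had 56.6 ± 0.869 against 40.2 ± 5.26 TPM, a log2 change of 0.49 (limma adjusted p = 0.00234). In these 4 genes every siMITF library lay above every siCTRL library, which was also the case in 21.3% of all tested genes. An adjusted p under 0.05 in the upward direction was reached by 4 members and by 18.4% of all tested genes. APOL2 had 87.3 ± 7.51 against 91.6 ± 6.02 TPM, with overlapping libraries and a log2 change between -0.25 and 0.11 (95% confidence interval, limma adjusted p = 0.565).

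Both treatments together were compared with untreated siCTRL cells, the same siCTRL libraries as above. The log2 change was 5.91 for APOL4, 5.56 for APOL6, 5.28 for APOL1, 4.46 for APOL3 and 1.47 for APOL2, all 5 counted as changed with limma adjusted p-values under 0.05. Of all tested genes 5.61% were changed upward in the combination. Here too, APOL1, APOL3, APOL4 and APOL6 entered the test only through their levels with IFNγ, so their number carries no weight of its own.

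The study asked whether the combination departs from what the single treatments give. On the TPM scale, the sum of the single effects added to the siCTRL level came to 10.5 TPM for APOL3, and the measured mean of the combination was 2.11 times that value. The measured mean was 1.67 times the sum for APOL4, 1.47 times for APOL1, 1.4 times for APOL6 and 1.16 times for APOL2. In APOL1, APOL3, APOL4 and APOL6 the levels without IFNγ were near 0, so the sum was close to the mean of siCTRL cells with IFNγ. The ratios of these genes therefore restate the difference between siMITF and siCTRL cells with IFNγ. These ratios were not tested, and the share of all tested genes that lay above their sum was not computed. On the log2 scale, the interaction, which subtracts the IFNγ effect seen with siCTRL from the IFNγ effect seen with siMITF, was 1.03 for APOL3 (standard error 0.13, 95% confidence interval 0.74 to 1.32, limma adjusted p = 0.0021). It was 0.99 for APOL2 (standard error 0.12, 95% confidence interval 0.73 to 1.25, limma adjusted p = 0.00101). For the other members it was 0.55 in APOL1, 0.53 in APOL4 and 0.4 in APOL6, with limma adjusted p-values of 0.382, 0.387 and 0.411. Thus 2 members passed, against 0.705% of tested genes with a positive interaction at an adjusted p under 0.05. APOL3 entered this test only through its levels with IFNγ. Its untreated levels were near 0, so its interaction largely repeats its log2 change of 1.01 with siMITF in the presence of IFNγ. The count of 2 therefore carries no weight of its own.

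The 2 called interactions came from different levels. In APOL3 the untreated levels of the siRNAs overlapped near 0 and the treated levels stood apart, whereas in APOL2 the untreated levels stood apart and the treated levels overlapped. IFNγ multiplied the mean of APOL2 2.97 times in siCTRL cells and 6.11 times in siMITF cells, to means of 91.6 and 87.3 TPM. Over the alternatives the adjusted p of APOL2 ran from 2.6e-04 to 0.0124. That of APOL3 ran from 5.1e-04 to 0.306, the latter with a pseudocount of 0.1, where its interaction was 1.18. With quantile normalization all 5 tested members passed, and with each library centred on its median APOL4 passed as well, with an adjusted p of 0.0351.

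**Figure D2:**
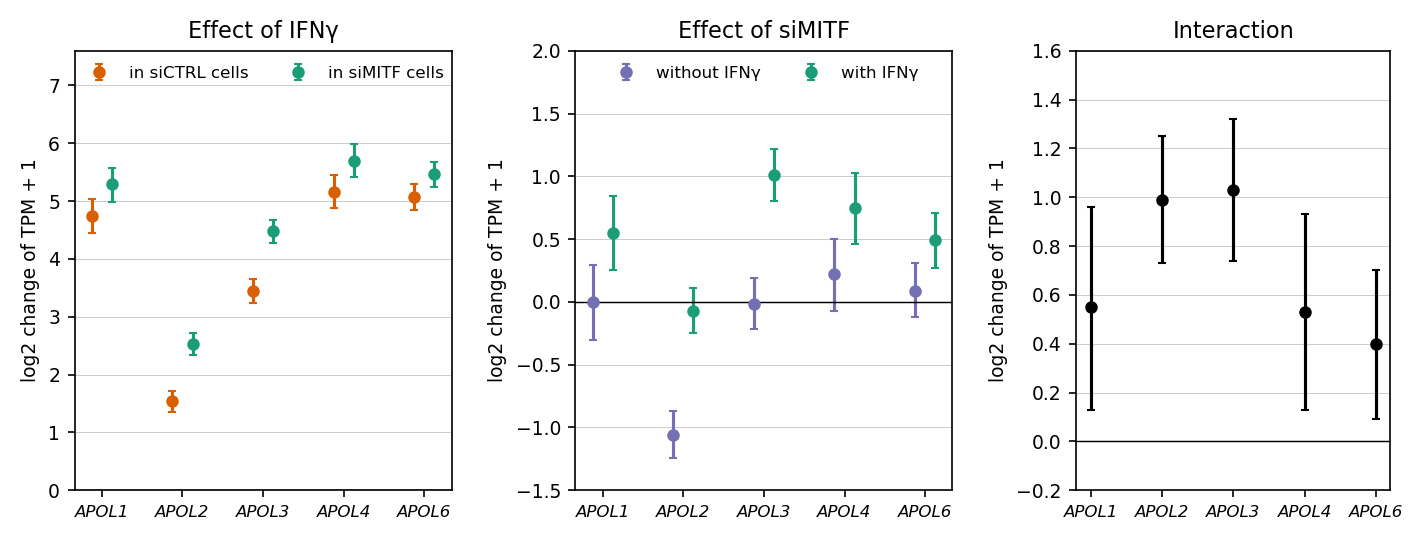
log2 change of TPM + 1 with 95% confidence intervals from limma (3 libraries per condition) for the 5 tested APOL genes, showing the effect of IFNγ in each siRNA, the effect of siMITF without and with IFNγ, and the interaction. The siMITF effect is -1.06 for APOL2 without IFNγ and 1.01 for APOL3 with IFNγ, and the interaction is 0.99 and 1.03 for these genes.

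The treatments changed the make-up of the family as well as its amount. The summed APOL TPM lay between 30.6 and 33.6 in siCTRL libraries, between 14.5 and 16.6 in siMITF, between 208 and 258 in siCTRL with IFNγ and between 294 and 318 in siMITF with IFNγ, so that the 4 conditions did not overlap. The share of APOL2 was 96.2% in siCTRL and 90.5% in siMITF cells without IFNγ. With IFNγ it was 39.6% ± 1.87 in siCTRL cells, followed by APOL4 at 21.7%, APOL6 at 17.3%, APOL1 at 16.9% and APOL3 at 4.54%. The TPM of APOL4 and APOL6, and of APOL6 and APOL1, overlapped there. In siMITF cells with IFNγ the share of APOL2 was 28.2% ± 1.35 and that of APOL4 was 27.5% ± 1.68, and the TPM of the genes overlapped. APOL1 at 18.8% and APOL6 at 18.3% also overlapped, and APOL3 took 7.18%.

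**Figure D3:**
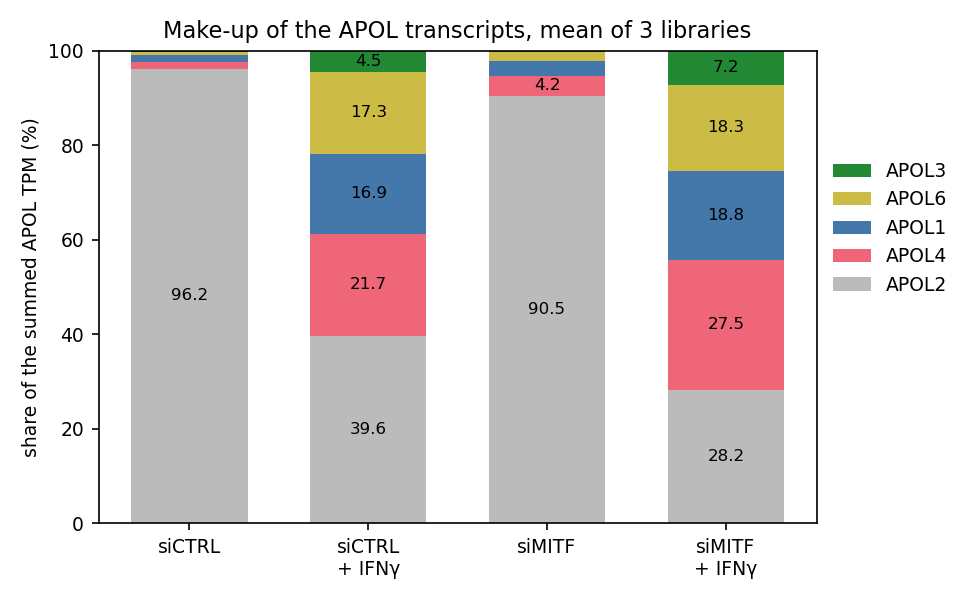
Share of the summed APOL TPM (%) taken by each member in the 4 conditions, as stacked bars of the mean of 3 libraries, with APOL5 too low to be drawn. APOL2 takes 96.2% and 90.5% without IFNγ and 39.6% and 28.2% with it.

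The members lie within a stretch of chromosome 22 that also holds genes of other families. In GRCh38 order, APOL6 (35648446 to 35668404, + strand) and APOL5 (35717872 to 35729483, + strand) come first and are followed by RBFOX2, which encodes a splicing regulator. APOL3 (36140329 to 36166177, − strand), APOL4 (36189124 to 36204840, − strand), APOL2 (36226209 to 36239954, − strand) and APOL1 (36253071 to 36267530, + strand) then stand together, with MYH9, which encodes a non-muscle myosin heavy chain, beyond them. Between TOM1 and EIF3D, over 1230 kb, 26 IDs were listed and 15 were tested, 10 of them outside the family. Among these 10 the log2 change with IFNγ ran from -0.29 to 0.55 in siCTRL cells and from -0.59 to 0.25 in siMITF cells, below the 1.54 of APOL2, the least induced member. None of the 9 tested genes on the list of neighbours was changed by IFNγ with either siRNA. RBFOX2, which stands between APOL5 and APOL3, had 30.4 ± 2.54 TPM without and 27.5 ± 6.34 TPM with IFNγ in siCTRL cells. MYH9, next to APOL1, had 142 ± 7.88 and 162 ± 24.3 TPM. With siMITF the log2 change of the 10 genes ran from -1.72 to 0.55 without IFNγ and from -1.69 to 0.29 with it. The lowest value in both was that of a processed pseudogene on the APOL6 side, ENSG00000233388, which had 3.15 ± 0.333 TPM with siCTRL and 0.258 ± 0.0647 TPM with siMITF (without IFNγ, limma adjusted p = 8.4e-08). It was on no list and was chosen after its values were seen. RASD2, a small GTPase gene on the same side, was changed by siMITF in the presence of IFNγ, with a log2 change of -1.07 (limma adjusted p = 8.7e-06). Without IFNγ its log2 change with siMITF was -0.77 (limma adjusted p = 1.3e-04), short of the size required.

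**Figure D4:**
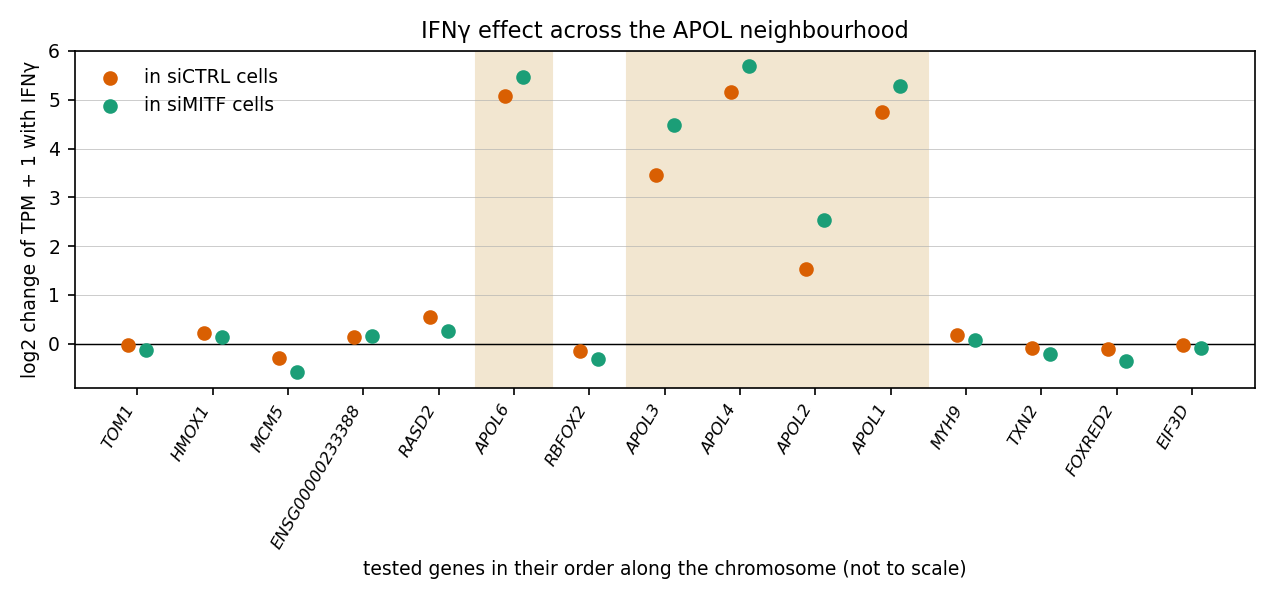
log2 change of TPM + 1 with IFNγ in siCTRL and siMITF cells for the 15 tested genes between TOM1 and EIF3D, in chromosomal order and not to scale, with APOL genes shaded. The shaded genes lie between 1.54 and 5.69 and the 10 others between -0.59 and 0.55.

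APOLD1, which encodes an endothelial early-response protein with an APOL-like domain and lies on chromosome 12, was lower with siMITF. It had 90.4, 108 and 92.2 TPM in siCTRL, 59.6, 71.6 and 73.4 TPM in siCTRL with IFNγ, 21.6, 24.4 and 21.5 TPM in siMITF and 19.5, 23.8 and 21.7 TPM in siMITF with IFNγ. It was changed by siMITF, with a log2 change of -2.05 without IFNγ (limma adjusted p = 2.5e-08) and -1.61 with it (limma adjusted p = 2.3e-07). With IFNγ its log2 change was -0.5 in siCTRL cells (limma adjusted p = 0.00814), short of the size required, and -0.05 in siMITF cells (limma adjusted p = 0.762).

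Genes of the pathway that IFNγ uses were set beside the family. Of 14 genes of IFNγ signalling 12 were tested, and 7 were changed upward by IFNγ in siCTRL cells and 7 in siMITF cells. Over all tested genes the shares were 2.42% and 2.72%. IRF1 had 2.49 ± 0.292 TPM in siCTRL, 88.0 ± 12.8 TPM in siCTRL with IFNγ, 3.08 ± 0.247 TPM in siMITF and 155 ± 19.1 TPM in siMITF with IFNγ. With IFNγ, IRF1 was higher in siMITF than in siCTRL cells by a log2 change of 0.82 (limma adjusted p = 2.3e-04), short of the size required. Its interaction was 0.59 and was not called (limma adjusted p = 0.21). IRF9, which encodes a subunit of an interferon-activated transcription factor complex, was the 1 gene of this list with a called interaction, at 0.61 (limma adjusted p = 0.0448). IRF9 and APOL2 were both lower with siMITF alone, IRF9 by a log2 change of -0.69 (limma adjusted p = 7.0e-05), and neither passed the test for siMITF in the presence of IFNγ.

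The guanylate-binding proteins (GBP), a family of IFNγ-induced GTPases that coat bacteria in the cytosol, served as a second induced family. Of its 7 genes 5 were tested, and all 5 rose with IFNγ with both siRNAs, with a median log2 change of 4.56 in siCTRL and 5.5 in siMITF cells beside 4.74 and 5.29 for the 5 APOL genes. GBP1, GBP3, GBP4 and GBP5 reached 2 TPM only with IFNγ, so that in both families the number that rose was largely set by the filter on low values. A positive interaction was called in 0.705% of all tested genes. Among the GBP genes the interaction was called in GBP4 at 1.71 (limma adjusted p = 7.5e-05), GBP2 at 0.93 (limma adjusted p = 0.0372) and GBP5 at 0.59 (limma adjusted p = 0.0487). Its median was 0.93 over the 5 GBP genes, 0.55 over the 5 APOL genes, 0.09 over the 12 IFNγ signalling genes and -0.03 over all tested genes.

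Lipid-carrying apolipoproteins of other families were also examined. Of 18 on the list 6 were tested, and none was changed by IFNγ in siCTRL or in siMITF cells. APOE, a carrier of lipids that melanocytic cells also express, fell by 1.05 on the log2 scale with siMITF in the presence of IFNγ (limma adjusted p = 7.0e-07). Without IFNγ its log2 change with siMITF was -0.96 (limma adjusted p = 1.5e-06), short of the size required. The interaction of APOE was -0.1 (limma adjusted p = 0.966). Of 10 genes of other proteins with a BH3 motif, all tested, 1 was changed upward by IFNγ in siCTRL cells and none in siMITF cells. It was BIK, a pro-apoptotic gene, with a log2 change of 1.05 in siCTRL cells (limma adjusted p = 1.9e-05). In siMITF cells the log2 change of BIK was 0.49 (limma adjusted p = 0.00652), short of the size required. The interaction of BIK, -0.56, was not called (limma adjusted p = 0.165). With siMITF alone 1 gene of this list, BMF, was changed upward (limma adjusted p = 1.9e-05). The 3 changed downward had log2 changes of -1.74 for BID, -1.31 for BNIP3L and -1.27 for HRK.

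**Figure D5:**
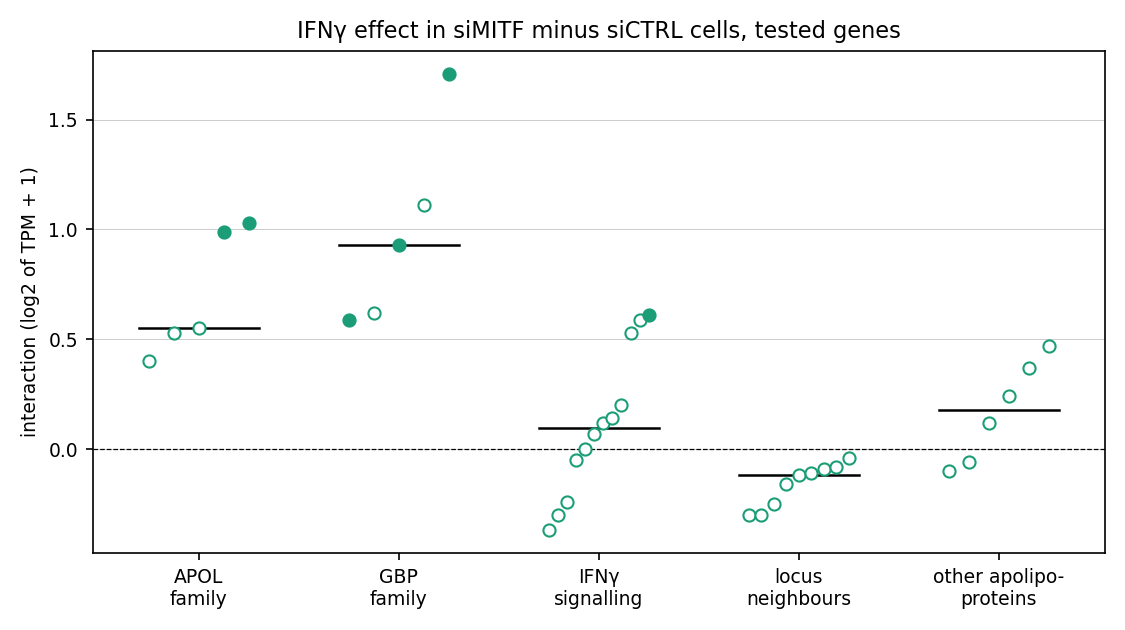
Interaction, as the log2 effect of IFNγ in siMITF minus that in siCTRL cells, for each tested gene of 5 lists, with filled points for an adjusted p under 0.05 and a line at the median. APOL3 and APOL2 are filled at 1.03 and 0.99, GBP4 is filled at 1.71, and the tested neighbours of the locus lie at or below 0.

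Over the 12 libraries, the log2(TPM + 1) of the members other than APOL2 followed each other closely. Pearson's r was 0.999 between APOL1 and APOL6 and at least 0.993 between any pair among APOL1, APOL3, APOL4 and APOL6. APOL2 had an r from 0.919 to 0.932 with them. These values describe 12 points from 4 conditions that share libraries. The tested genes with a symbol numbered 11957, the tested members included. Outside the family, the genes most like APOL1 were GBP1, GBP5 and OAS2, and those most like APOL4 were IRF1, OAS2 and HAPLN3. Those most like APOL6 were GBP5, GBP1 and IFI27. The r was at least 0.999 in each of these cases. APOL3 was most like CXCL9, which encodes a chemokine for T cells, with an r of 0.999, and then like C4B and TCAF2, both at 0.998. For APOL2, FAM167B had an r of 0.993 and PARP9 an r of 0.985.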

How the data were processed

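Reads were trimmed by the authors (Trimmomatic 0.39) and quantified against Ensembl GRCh38 transcripts with kallisto, and the authors deposited TPM per Ensembl gene ID. The gene summarization and the Ensembl release are not given in the sources used here. The authors' DESeq2 test used counts, which are not analysed here. Symbols, positions and transcripts were taken from GENCODE version 44 (GRCh38).

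Here log2(TPM + 1) of the 12773 IDs whose mean reached 2 TPM in some condition was fitted with limma 3.58.1 in R 4.3.3, with 1 coefficient per condition over all 12 libraries, a trend in the moderation, two-sided tests and Benjamini-Hochberg adjustment. The fit was tested on simulated data. Correlations, shares and plots were computed with pandas 2.3.3 and matplotlib 3.10.9 (Python 3.11.15).

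The members and lists were chosen with earlier results of these data known. All members were named, with, from each list, counts and at most the 3 largest changes (any gene of the locus and IFNγ signalling lists), and the 3 genes most correlated with each member. Some genes that this rule names are not reported here. Several comparisons use the same siCTRL libraries, and their errors are therefore correlated. After subtraction of condition means, the 18 pairs of libraries with the same replicate number in different conditions had correlations of 0.102 to 0.625, with a median of 0.279. The 36 pairs with different numbers had a median of -0.196 and a highest value of 0.226, so the ranges overlapped. The numbers were therefore treated as a possible pairing, and a replicate block was run as an alternative. The other alternatives were pseudocounts of 0.1 and 0.5, no filter, a minimum mean over the 12 libraries of 5 TPM, median centring, quantile normalization, untrended moderation, a fit of only the conditions compared, an adjusted p under 0.01, fold changes from mean TPM and each library left out in turn. No filter together with the block was added after seeing the data.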

Additional observations from a re-analysis of the deposited data

Results flagged for a closer look

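The effect of IFNγ differed between siMITF and siCTRL cells in 2 APOL genes by the interaction test of limma. The interaction was 1.03 on the log2 scale for APOL3 (95% confidence interval 0.74 to 1.32, adjusted p = 0.0021) and 0.99 for APOL2 (95% confidence interval 0.73 to 1.25, adjusted p = 0.00101). In APOL2 the ratio of treated to untreated mean TPM was 6.11 in siMITF and 2.97 in siCTRL cells. For APOL3 such ratios divide by levels near 0 and were not compared. With a pseudocount of 0.1 the interaction of APOL3 was not called (limma adjusted p = 0.306). The untreated level of APOL3 was at most 0.0821 TPM in any library, so that its interaction rests on the treated levels of 10.5 and 22.2 TPM, while that of APOL2 rests on the untreated levels of 30.8 and 14.3 TPM.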

How the results depend on the processing

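The calls for IFNγ in siCTRL cells (5 members), IFNγ in siMITF cells (5), the combination (5) and siMITF without IFNγ (1) were the same in number under all 24 alternatives. For siMITF without IFNγ the count could not exceed 1, because only APOL2 reached 2 TPM there. The replicate block changed no call of a member, with 2 members called for the interaction and 1 for siMITF with IFNγ under the block. For siMITF with IFNγ the count was 0 with median centring and ran from 0 to 1 with single libraries left out, where APOL3 had log2 changes from 0.96 to 1.07. For the interaction it was 1 with a pseudocount of 0.1 and 5 with quantile normalization, and the cause was not tested. Uncalled log2 changes near 0 turned sign. That of APOL1 for siMITF without IFNγ was 0.009 from mean TPM and ran from -0.11 to 0.14 with libraries left out, that of APOL3 from -0.054 to 0.006, and that of APOL2 for siMITF with IFNγ from -0.11 to 0.002. The fit with only the conditions compared could not be made for the interaction, which uses all 4. Depth is unknown, so the counting error of values under 1 TPM cannot be given.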
